A study of Homo sapiens with 6 samples.

Results

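Solute carriers are the membrane proteins, apart from ATP-driven pumps and channels, that move sugars, amino acids, ions, vitamins and metabolites into cells and between their compartments. The SLC number names a family of related proteins, and members of a family usually carry related substrates. Some are used by nearly every cell, such as the carriers of the inner mitochondrial membrane, while others are known from the absorbing and excreting surfaces of intestine, kidney and liver or from the synaptic vesicles of neurons. The members described here are the genes of a deposited high-expression list and a deposited low-expression list whose symbol starts with SLC and a digit. SLC25A6 stood on both lists and was left out. This rule gave 149 members of 8942 listed genes, 69 of them high and 80 low.

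The study compared cells that migrated through a transwell membrane with cells that did not, in SiHa, an established line from a squamous cell carcinoma of the uterine cervix. The migrated fraction and the non-migrated fraction had 3 libraries each, and the series describes the replicate sets as paired. All cells were the same line at passages 18-23, grown in DMEM with 10% serum, and were collected 10 h after seeding with no agent named. A transwell fraction is a sort of 1 line by movement, and the scraped cells of several wells were pooled. Migrated libraries held 23166447 to 25662866 assigned fragments and non-migrated libraries 18226280 to 33466924. The expression table names its loci by assembly IDs that the files do not pair with genes. No level per library, fold change or test of migrated against non-migrated cells can therefore be given for any solute carrier. The 2 lists give a symbol and a position on build hg19 with no expression value, and the sources used here do not say how, or in which libraries, the genes were picked. Membership is therefore treated as a mark of level and not as a difference between migrated and non-migrated cells, and a gene on neither list has an unknown level. No member was tested, and the shares below are counts set beside the same counts over other genes. Of 10 epithelial and squamous markers, KRT7, KRT8, KRT18 and KRT17 were listed as high, KRT5 as low, and KRT19, KRT14, EPCAM, CDH1 and TP63 were on neither. The leukocyte markers PTPRC, CD3D and CD2, the endothelial markers KDR and TIE1 and the fibroblast marker COL1A2 were on the low list. The leukocyte marker CD79A, the endothelial marker PECAM1 and the fibroblast markers COL1A1 and DCN were on neither list. No marker looked up for these 3 cell types was on the high list.

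Promoters of 4 members are printed as examples from both lists, and they do not represent the lists. Each window runs from 250 bases before to 50 bases after a transcript start, 5′ to 3′ on the gene's strand, from RefSeq on GRCh38.p14, with every CG dinucleotide in capitals. SLC2A1 encodes the basal glucose transporter and was on the high list (chr1:42958819-42959118, minus strand). SLC25A5, the ADP/ATP carrier of dividing cells, was on the high list (chrX:119468194-119468493, plus strand). SLC25A31, the ADP/ATP carrier known from the testis, was on the low list (chr4:127730150-127730449, plus strand). SLC28A1, the sodium-coupled pyrimidine nucleoside transporter of kidney and intestine, was on the low list (chr15:84884412-84884711, plus strand).
SLC2A1: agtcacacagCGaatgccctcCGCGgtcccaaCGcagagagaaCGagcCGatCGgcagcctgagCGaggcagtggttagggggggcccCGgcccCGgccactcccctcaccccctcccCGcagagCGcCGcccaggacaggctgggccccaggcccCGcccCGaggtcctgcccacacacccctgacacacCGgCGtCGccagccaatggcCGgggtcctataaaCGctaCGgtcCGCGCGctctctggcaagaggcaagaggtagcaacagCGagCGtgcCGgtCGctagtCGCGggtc
SLC25A5: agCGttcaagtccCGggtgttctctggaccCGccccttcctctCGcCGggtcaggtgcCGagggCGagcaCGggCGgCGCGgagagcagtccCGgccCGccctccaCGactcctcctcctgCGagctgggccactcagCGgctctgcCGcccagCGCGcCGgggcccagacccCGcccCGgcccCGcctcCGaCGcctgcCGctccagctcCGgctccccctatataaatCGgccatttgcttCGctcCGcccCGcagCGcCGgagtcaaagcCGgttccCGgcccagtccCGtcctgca
SLC25A31: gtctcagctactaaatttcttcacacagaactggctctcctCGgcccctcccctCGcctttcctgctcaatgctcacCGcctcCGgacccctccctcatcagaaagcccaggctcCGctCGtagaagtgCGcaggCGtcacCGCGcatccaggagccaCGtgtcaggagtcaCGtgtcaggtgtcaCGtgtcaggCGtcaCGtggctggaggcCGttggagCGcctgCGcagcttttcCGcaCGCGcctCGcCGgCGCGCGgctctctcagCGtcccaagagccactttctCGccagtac
SLC28A1: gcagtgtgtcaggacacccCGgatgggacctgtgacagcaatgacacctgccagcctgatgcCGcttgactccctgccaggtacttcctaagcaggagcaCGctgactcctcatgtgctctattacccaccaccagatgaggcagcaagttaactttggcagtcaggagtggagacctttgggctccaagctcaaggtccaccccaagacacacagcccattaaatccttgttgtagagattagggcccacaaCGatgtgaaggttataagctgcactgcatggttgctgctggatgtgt
The windows of SLC2A1 and SLC25A5 held 30 and 36 CG, and each held the letters TATAAA. These letters are rarer on the high list, in 3 of 62 members with a window against 15 of 57 on the low list. Neither printed low member is among the 15. The window of SLC28A1 held 4 CG. That of SLC25A31 held 28 CG although the gene was on the low list, and it held the letters CACGTG 4 times, in lower case around the capitals.

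As a whole, the members were spread over both lists, with a share close to that of all listed genes. On the high list stood 46.3% of the members, against 50.6% of all listed genes. The wider set was the 386 RefSeq protein-coding genes with a symbol of this kind, listed or not, of which 4 encode no transporter. Of the 386, 72 (18.7%) were listed as high and 79 (20.5%) as low, against 22.3% and 18.8% of all 20056 RefSeq protein-coding genes. A further 234 were on neither list. These counts include 5 genes that the lists carry under another name and the symbol rule did not take. They were HIAT1, HIATL1 and GPR172A, all high, and OSTBETA and MCART2, both low, whose current symbols are SLC71A1, SLC71A2, SLC52A2, SLC51B and SLC25A52. For comparison, 9 of 16 listed ABC transporters, the ATP-driven pumps, and 5 of 80 listed ion channel subunits were on the high list. The difference between these gene groups was not tested.

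**Figure D1:**
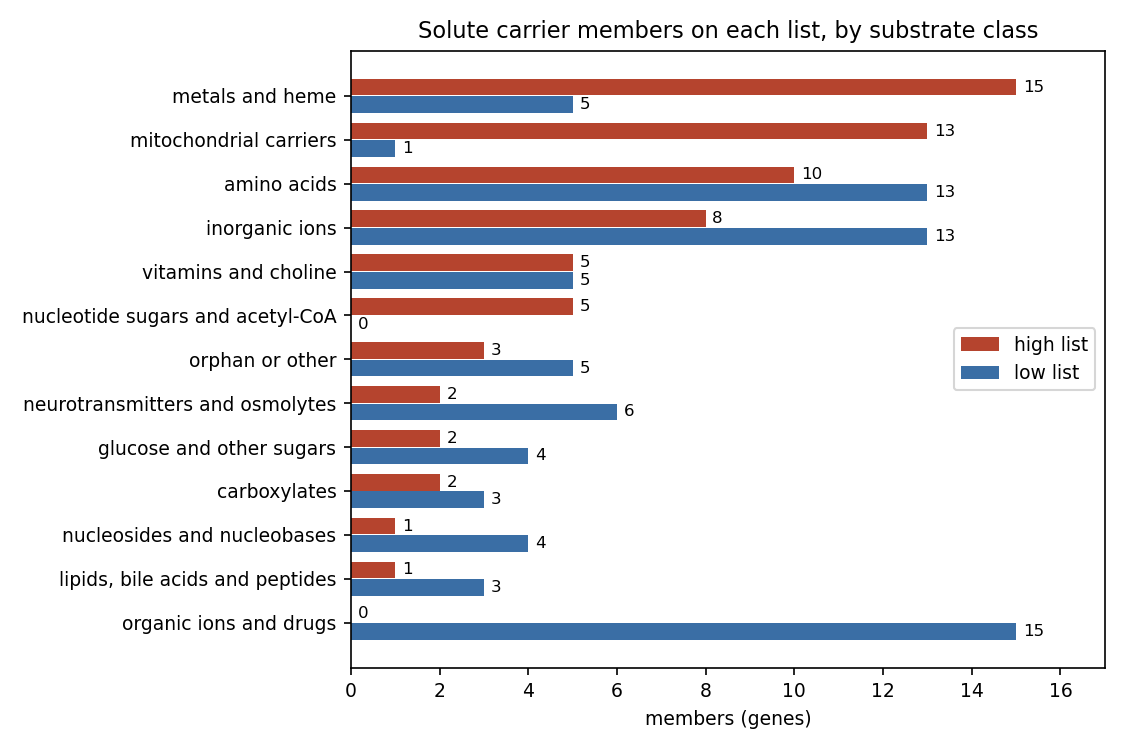
Members on the high list (upper bar, red) and the low list (lower bar, blue) in each substrate class, as numbers of genes. Metal carriers, with 15 high and 5 low, and mitochondrial carriers, with 13 high and 1 low, were mostly high among the listed genes, while all 15 listed organic ion carriers were low; 5 members that encode no transporter are not drawn.

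By substrate, the spread among listed genes was uneven, and differences between classes were not tested. Mitochondrial carriers gave 13 high and 1 low and metal and heme carriers 15 high and 5 low, while nucleotide sugar carriers gave 5 high and 0 low. Organic ion and drug carriers gave 0 high and 15 low, nucleoside and nucleobase carriers 1 high and 4 low, and neurotransmitter and osmolyte carriers 2 high and 6 low. Amino acid carriers gave 10 high and 13 low and inorganic ion carriers 8 high and 13 low. Sugar carriers gave 2 high and 4 low, carboxylate carriers 2 high and 3 low, and carriers of vitamins and choline 5 of each. Lipid, bile acid and peptide carriers gave 1 high and 3 low. A further 8 members, of families with no settled substrate or carrying urea, gave 3 high and 5 low, and 5 members encode no transporter. These counts hold all SLC25 members in 1 class. With each put instead with what it carries, nucleoside, nucleobase and nucleotide carriers were 5 of 10 high in place of 1 of 5, and carboxylate carriers 5 of 8 in place of 2 of 5.

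Among glucose and other sugar carriers, SLC2A1 (chr1:43391519-43424539, minus strand, hg19) stood on the high list. SLC5A3 (chr21:35445870-35478559), which brings in the osmolyte myo-inositol with sodium, was the other high member. The low members were SLC2A3 (chr12:8071826-8088871), the high-affinity glucose transporter best known from neurons, SLC2A7 (chr1:9063359-9086404), a hexose transporter of the intestine, SLC5A1 (chr22:32439019-32509016), which couples glucose to sodium in the intestine, and SLC5A11 (chr16:24857162-24922947), a second sodium-coupled inositol transporter. SLC2A3 has a near-identical neighbour, SLC2A14, between which reads can be split, and SLC2A14 was on neither list. Of the 30 sugar carrier genes in RefSeq, 24 were on neither list. The genes that act on glucose after entry, HK1 and HK2, which phosphorylate it, were both on the high list, while HK3 was on neither. TXNIP, an inhibitor of glucose uptake, was also high.

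The monocarboxylate carriers SLC16A1 (chr1:113454469-113499635) and SLC16A3 (chr17:80186293-80197369), which carry lactate and pyruvate together with protons across the plasma membrane, were both high. Their chaperone BSG was high and the related chaperone EMB was low. The low carboxylate members all use sodium. They were SLC5A8, a monocarboxylate carrier, and SLC13A2 and SLC13A5, carriers of dicarboxylates and citrate in kidney and liver.

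Amino acid carriers stood on both lists, and the low ones included every listed carrier of the chloride-coupled and proton-coupled kinds within this class. SLC6A6 and SLC6A8, which also use sodium and chloride, were high and were classed with neurotransmitter and osmolyte carriers. SLC7A5 (chr16:87863622-87903125) carries large neutral amino acids in exchange, and SLC3A2 (chr11:62623518-62656352) is the heavy chain that brings it to the surface; both were high. SLC7A6, another light chain of SLC3A2, and SLC7A1 (chr13:30083547-30169721), which takes up arginine and lysine, were also high. SLC1A5 (chr19:47278140-47291851), a glutamine exchanger, and SLC1A3, a glutamate transporter, were high. SLC38A1 and SLC38A2, sodium-coupled importers of glutamine and other small neutral amino acids, were high, as were SLC38A7, a lysosomal glutamine carrier, and SLC38A10. The low members included all 4 listed amino acid carriers that use sodium and chloride. These were SLC6A14, SLC6A19 and SLC6A20, which absorb amino acids at epithelial surfaces, and SLC6A5, the glycine transporter of inhibitory neurons. Both listed proton-coupled carriers, SLC36A2 and SLC36A3, were low. The other low members were SLC1A6 and SLC1A7, glutamate transporters of the cerebellum and retina, SLC7A3, a cationic amino acid transporter, SLC7A13 and SLC7A14, and SLC38A4 and SLC38A8. SLC1, SLC7 and SLC38 therefore had members on both lists, while SLC7A11, the cystine importer, was on neither.

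Nucleoside carriers were low apart from SLC43A3 (chr11:57174427-57195053), which carries purine nucleobases. All 3 genes of the concentrative, sodium-coupled nucleoside family were on the low list. They are SLC28A1 (chr15:85427885-85518876), SLC28A2 (chr15:45544428-45568133) and SLC28A3 (chr9:86890372-86955672). The equilibrative carriers SLC29A1, SLC29A2 and SLC29A3 were on neither list, so the lists say nothing of their level. The same holds for SLC29A4, which was classed as a monoamine carrier with the organic ion carriers. SLC17A9, which loads nucleotides into vesicles, was low. Of the 8 genes in the class, 1 was high (12.5%), 4 were low and 3 were not listed, against backgrounds of 22.3% high and 18.8% low over all coding genes.

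Among inorganic ion carriers, several of the 8 high members are known for the control of cell volume and pH. SLC12A2 takes up sodium, potassium and chloride, SLC12A4 lets potassium and chloride out, and both were high, as were WNK1, STK39 and OXSR1, kinases that set their activity, while WNK2, WNK3 and WNK4 were on neither list. SLC4A2, a chloride-bicarbonate exchanger, and SLC4A7, a sodium-bicarbonate carrier, were high. SLC20A1, a sodium-phosphate carrier, SLC26A6, an anion exchanger, and SLC24A6, the mitochondrial sodium-calcium exchanger now named SLC8B1, were also high. The low set held SLC8A1, the sodium-calcium exchanger of heart muscle, and SLC24A2, SLC24A3 and SLC24A5, exchangers that also carry potassium. It also held SLC9A4 of the stomach and SLC9A11, now SLC9C2; SLC4A4 and SLC4A10, bicarbonate carriers of kidney and brain; SLC26A3, SLC26A9 and SLC34A2, anion and phosphate carriers of epithelia; SLC5A5, the thyroid iodide importer; and SLC13A1, a sulfate carrier. Of the sodium pump subunits, ATP1B1 and ATP1B3 were high and ATP1A4, known from sperm, was low.

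Metal carriers had the largest number of high members of any class. Of 33 metal carrier genes in RefSeq, 15 (45.5%) were high and 5 (15.2%) low, against 22.3% and 18.8% of all coding genes. The zinc importers gave 8 high and 2 low. The high ones were SLC39A1, SLC39A6, SLC39A7, SLC39A8, SLC39A9, SLC39A10, SLC39A13 and SLC39A14, of which SLC39A8 and SLC39A14 also carry manganese and iron, and the low ones SLC39A2 and SLC39A12. The family of zinc exporters gave 4 high and 3 low. SLC30A1 of the plasma membrane, SLC30A5 and SLC30A7 of the secretory pathway and SLC30A9 were high. SLC30A8, which fills the insulin granules of beta cells, SLC30A2, which secretes zinc into milk, and SLC30A10, which exports manganese, were low. SLC31A1, the copper importer, and the magnesium carriers SLC41A1 and SLC41A3 were high.

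Mitochondrial carriers of the SLC25 family gave 13 high and 1 low, and 32 of the 48 RefSeq genes were on neither list. The rest of the 48 were SLC25A6, on both lists, and SLC25A52, low under its older name. Of the 48, 27.1% were high, near the 22.3% of all coding genes, and 4.17% were low, below the 18.8% of all coding genes; these differences were not tested. The high members covered several steps of energy metabolism. SLC25A3 imports phosphate and SLC25A5 (chrX:118602363-118605282) exchanges ADP for ATP. SLC25A1 exports citrate, SLC25A10 carries dicarboxylates, SLC25A11 carries oxoglutarate, and SLC25A13 and SLC25A22 carry aspartate and glutamate. SLC25A24 and SLC25A36 carry nucleotides, SLC25A37 imports iron, SLC25A39 imports glutathione, SLC25A29 carries basic amino acids, and SLC25A17 lies in the peroxisome. The porins VDAC1, VDAC2 and VDAC3, which pass metabolites through the outer membrane, were also high. The single low member was SLC25A31 (chr4:128651533-128695448), the ADP/ATP carrier of the testis. Of the other ADP/ATP carriers, SLC25A6 was on both lists, which gives it no single mark of level. SLC25A4 was on neither, so its level is unknown. SLC25A5 spans 2.92 kb and has many processed copies in the genome, and the way reads were divided among copies is unknown here. SLC25A31 spans 43.9 kb.

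**Figure D2:**
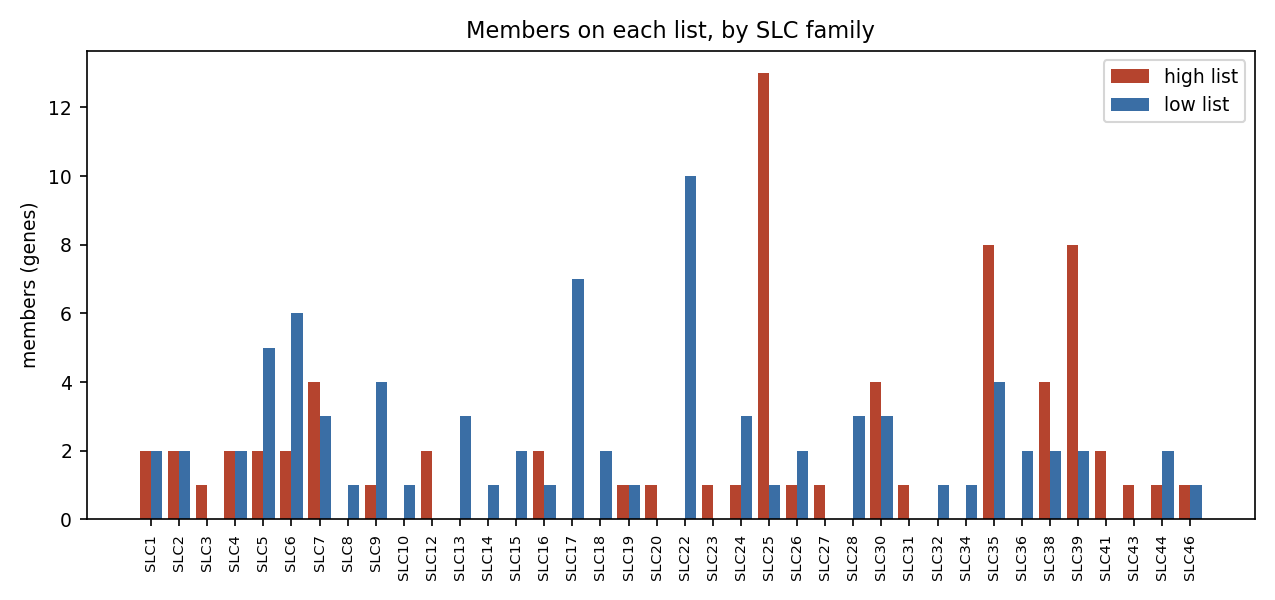
Members on the high list (left bar, red) and the low list (right bar, blue) in each of the 38 SLC families with a listed member, as numbers of genes. SLC25, SLC39 and SLC35 held the most high members, with 13, 8 and 8, and SLC22 and SLC17 the most low members, with 10 and 7 and none high.

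All 5 listed nucleotide sugar carriers of the secretory pathway were high. SLC35A2 brings UDP-galactose into the Golgi, SLC35B2 the sulfate donor, SLC35B4 and SLC35D1 other nucleotide sugars, and SLC35A4 is a close relative. None of the 16 RefSeq genes of the class, acetyl-CoA carriers included, was on the low list, against 18.8% of all coding genes. Of the 16, 31.25% were high, against 22.3% of all coding genes, and 11 were on neither list. These differences were not tested. The other SLC35 members have no settled substrate. SLC35E1, SLC35E2B and SLC35F5 were high and SLC35F1, SLC35F3, SLC35F4 and SLC35G3 low, and SLC35E2B has a near-identical copy. SLC14A1, a urea transporter grouped with them, was low. Vitamin and choline carriers stood on both lists. SLC19A1 and SLC46A1, which take up folates, SLC23A2, which takes up ascorbate, SLC5A6, which takes up biotin and pantothenate, and SLC44A1, a choline transporter, were high. SLC19A3, a thiamine transporter, SLC46A3, SLC44A4, SLC44A5 and SLC5A7, the choline importer of cholinergic neurons, were low. SLC27A4, a fatty acid carrier, was high. SLC10A2, the bile acid importer of the ileum, and SLC15A1 and SLC15A5, of the peptide carrier family, were low.

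Organic ion carriers were the largest group on the low list alone. All 10 listed SLC22 members were low, among them SLC22A6 and SLC22A8, the organic anion importers of the kidney tubule, SLC22A12, the urate exchanger, SLC22A11, an organic anion carrier beside it on chromosome 11, SLC22A7 of the liver and SLC22A16, a carnitine carrier. The SLC17 members SLC17A1, SLC17A2, SLC17A3 and SLC17A4, organic anion carriers of kidney and intestine, and SLC16A12, a creatine carrier, were the remainder. Of the 32 genes of the class in RefSeq, 15 (46.9%) were low, against 18.8% of all coding genes, and 17 were on neither list. Vesicular transmitter carriers were also low. They were SLC17A6 and SLC17A8, which load glutamate, SLC18A1, which loads monoamines, SLC18A3, which loads acetylcholine, and SLC32A1, which loads GABA and glycine. The osmolyte and creatine carriers SLC6A6 and SLC6A8 were high.

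Of 38 families with a listed member, 18 had members on both lists, 8 on the high list only and 12 on the low list only. A family with 1 listed gene can stand on 1 list only. By listed symbol, this held for SLC3, SLC8, SLC10, SLC14, SLC20, SLC23, SLC27, SLC31, SLC32, SLC34 and SLC43. The high member SLC24A6 was counted in SLC24. Under its current symbol, SLC8B1, SLC8 would stand on both lists and SLC24 on the low list only. Position was shared within some families. Neighbours within 1 Mb formed 15 clusters that held 40 members. Of these clusters, 2 were all high, 6 all low and 7 split between the lists. The cluster with the most members, chr11:62623518-63177766 on hg19, spanned 554 kb. It held SLC3A2 on the high list and SLC22A6, SLC22A8, SLC22A24, SLC22A10, SLC22A25 and SLC22A9 on the low list. At chr12:46581584-47226191, SLC38A1 and SLC38A2 were high and SLC38A4 was low. SLC17A4, SLC17A1, SLC17A3 and SLC17A2 lay together at chr6:25754927-25930946, all low. SLC38A10, SLC25A10 and SLC16A3, of different families, lay at chr17:79218800-80197369, all high. SLC7A6 and SLC7A6OS, which overlap on opposite strands and were both high, may share reads, since no source used here states whether strand was used in counting. Other members that encode no transporter were the antisense RNAs SLC9A9-AS1 and SLC9A9-AS2 on the low list and SLC2A4RG, a transcription factor gene named after a glucose transporter, on the high list.

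**Figure D3:**
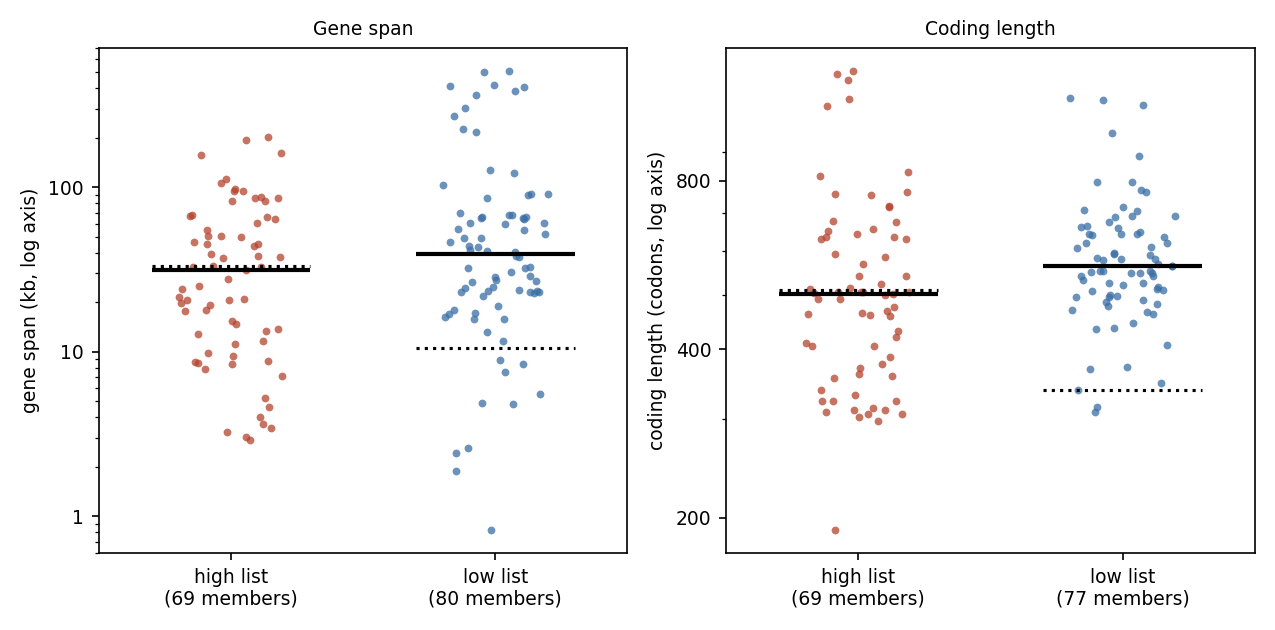
Gene span in kb (left) and coding length in codons (right), both on log axes, for members on the high list (red) and the low list (blue); each point is a gene, the solid line is the members' median and the dotted line the median of all other listed genes. On the low list the members' medians, 39.4 kb and 563 codons, lie above the dotted lines at 10.6 kb and 339 codons.

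Gene spans were read from the hg19 positions. Coding lengths and exon numbers came from GENCODE release 29, for the transcript with the longest coding sequence. The median gene span was 31.2 kb for 69 high members (2.92 to 201.9 kb) and 39.4 kb for 80 low members (0.824 to 510.3 kb). All other listed genes had medians of 33.3 kb on the high list and 10.6 kb on the low list. The shortest high members were SLC25A5, SLC25A11 and SLC25A1, at 2.92 to 3.25 kb, and the longest was SLC25A13. The longest low members were SLC24A3 at 510.3 kb and SLC8A1 at 498.9 kb, both calcium exchangers. The median coding length was 503 codons for high members and 563 codons for low members, against 511 and 339 codons for all other listed genes. Exon numbers had medians of 10 for high and 11 for low members, against 11 and 5.

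**Figure D4:**
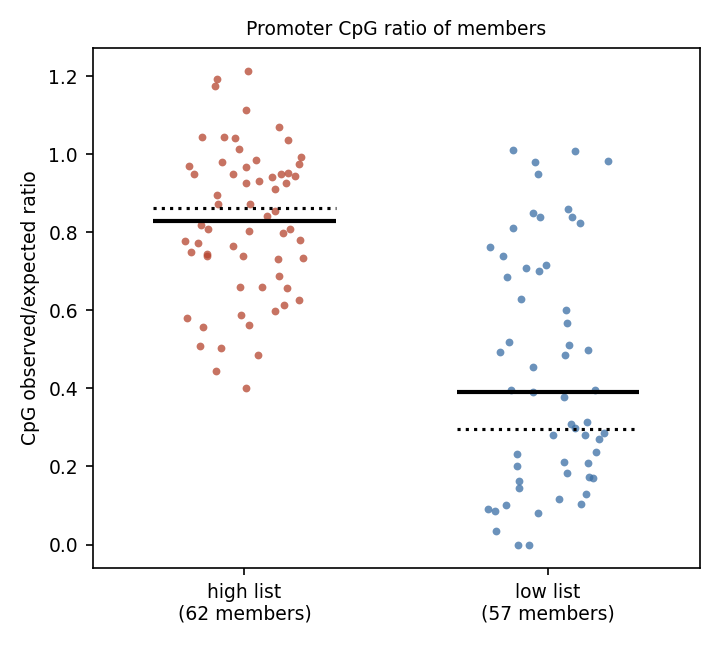
CpG observed/expected ratio of the promoter window for 62 members on the high list (red) and 57 on the low list (blue); each point is a gene, the solid line is the members' median and the dotted line the median of all other listed genes. Each ratio is a mean over the gene's windows. Most high members lie above 0.6, while low members run from 0 to 1.01, and the 2 sets overlap between 0.40 and 1.01.

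The lists differed in promoter composition, for members as for other genes. The CpG ratio is the number of CG dinucleotides over the number expected from the C and G content of the window, averaged over a gene's windows. Its median was 0.829 for 62 high members with a window and 0.390 for 57 low members. All other listed genes had medians of 0.863 (high list) and 0.296 (low list). The median window held 28 CG in high members and 8 in low members. A ratio of 0.6 or more, a common mark of a CpG-rich promoter, was reached by 52 of 62 high members (83.9%) and 19 of 57 low members (33.3%). The shares of all other listed genes were 89.3% and 24.8%. Just above 0.6 lay the low member SLC1A6 at 0.601, and just below it the high member SLC16A3 at 0.598. The lowest high member was SLC1A3 at 0.40, a mean over 3 windows of which the highest was 0.628. With each gene's most CpG-rich window, a choice made after seeing the data, all 62 high members lay at 0.628 or above. Low members then ran from 0 to 1.06. Within the amino acid class the medians were 0.791 for 10 high members and 0.298 for 11 low members, and the low organic ion carriers had a median of 0.202 over 11 genes. The mitochondrial carriers had a median of 0.936 over 12 high members. Their low relative SLC25A31, at 0.949, was as CpG-rich as they were. Other low members with ratios of 0.98 or more were SLC6A20, SLC32A1, SLC22A16 and SLC30A2.

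**Figure D5:**
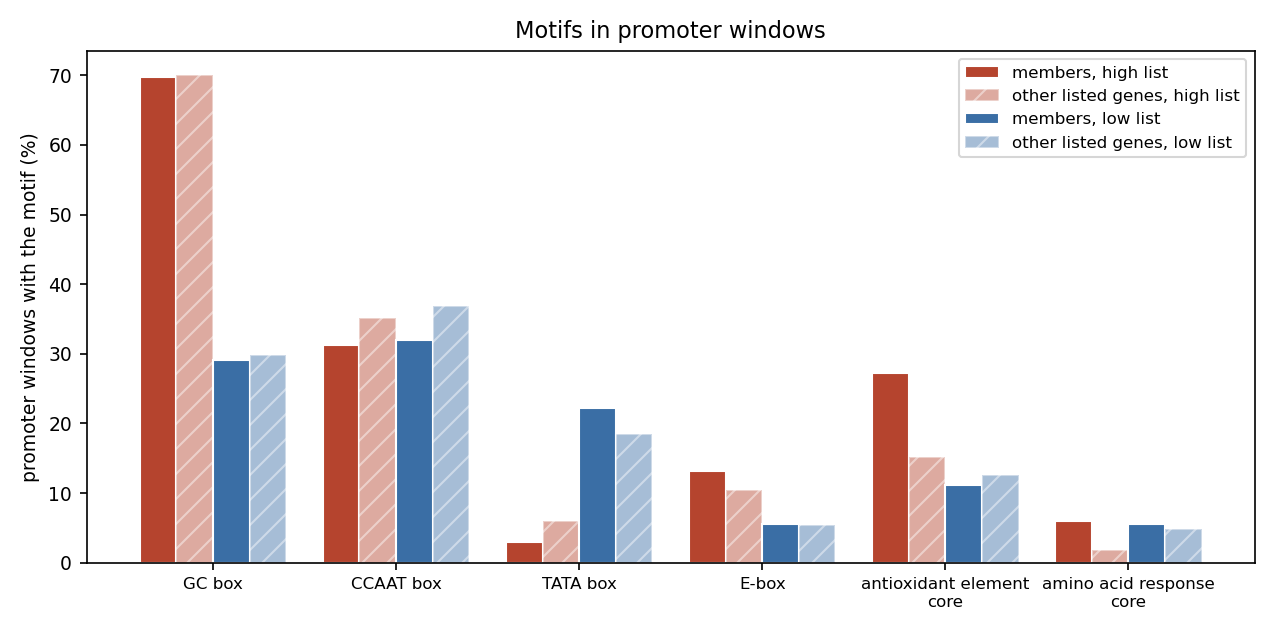
Share of promoter windows, in percent, that hold each motif on either strand, for members (solid bars) and all other listed genes (hatched bars) on the high list (red) and the low list (blue). The GC box was in 69.7% of high and 29.2% of low member windows, and the antioxidant element core in 27.3% and 11.1%.

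Motifs were searched on both strands as plain letters, and a match describes letters, not a bound site. The GC box, GGGCGG, was in 69.7% of 99 high member windows and 29.2% of 72 low member windows, beside 70.0% and 29.9% for other listed genes and 15786 of all 35116 windows. The TATA box, TATAAA, was in 3.03% of high and 22.2% of low member windows, beside 5.99% and 18.4% for other listed genes and 11.5% of all windows. The 3 high members with TATAAA were SLC2A1, SLC25A5 and SLC38A1. The CCAAT box, CCAAT, was in 31.3% and 31.9% of member windows, beside 35.1% and 36.9% for other listed genes and 34.6% of all windows. The E-box, CACGTG, was in 13.1% of high and 5.56% of low member windows. It was in 10.4% and 5.46% of windows of other listed genes and 7.26% of all windows. A window with CACGTG 4 times or more, as printed for SLC25A31, occurred in 5 of the 35116 windows. The core of the antioxidant element, TGACNNNGC, was in 27 high member windows (27.3%) and 8 low member windows (11.1%), beside 15.1% and 12.7% for other listed genes and 13.3% of all windows. Only 62 high and 57 low members had a window, some had several overlapping windows, and these shares were not tested.

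The core of the amino acid response element, TGATGNAA, contains none of the other motifs and was in 3.62% of all windows. It was in 6.06% of high and 5.56% of low member windows, beside 1.86% and 4.86% for other listed genes. Of the amino acid carriers with a window, 5 of 10 high members held it and 0 of 11 low members did, while 1 of 52 other high members and 3 of 46 other low members held it. The motif was chosen with the lists known, and these counts are a description. They count genes with the core in any window, while the percentages above are of windows. Per gene, 2.42% of high and 5.96% of low listed genes that were not members held it. More windows give a gene more chances. Of the 5 high carriers with the core, SLC1A3, SLC1A5 and SLC3A2 had 3 windows each, SLC38A1 had 2 and SLC7A1 had 1. Of the other 5, SLC38A7 had 2 and the rest 1 each. Of the 11 low carriers, SLC1A6 had 2 and the rest 1 each. The sites are printed because they mark which amino acid carriers hold the core, which is in capitals. They read 5′ to 3′ on the gene's strand (GRCh38.p14), and in SLC3A2 the core lies on the opposite strand. The positions are chr5:36596352-36596391 (plus strand) for SLC1A3, chr19:46784888-46784927 (minus) for SLC1A5, chr12:46266497-46266536 (minus) for SLC38A1, chr11:62881720-62881748 (plus) for SLC3A2 and chr13:29595658-29595697 (minus) for SLC7A1.
SLC1A3: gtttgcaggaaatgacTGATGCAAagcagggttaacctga
SLC1A5: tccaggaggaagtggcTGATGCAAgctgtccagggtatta
SLC38A1: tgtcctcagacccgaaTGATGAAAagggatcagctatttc
SLC3A2: taatgtgcaggactccTTACATCAgctcc
SLC7A1: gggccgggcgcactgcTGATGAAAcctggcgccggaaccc
The glutamine carriers SLC1A5 and SLC38A1, the glutamate carrier SLC1A3, the arginine carrier SLC7A1 and the heavy chain SLC3A2 were thus the 5 with the core. The other 5 high amino acid carriers, SLC7A5, SLC7A6, SLC38A2, SLC38A7 and SLC38A10, did not hold it in these windows.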

How the data were processed

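RNA of 3 migrated and 3 non-migrated SiHa libraries was sequenced. Cuffdiff, Cufflinks 2.2.1, TopHat2, CASAVA 1.8.2 and build hg19 are listed in the submitters' processing notes without order or settings. The table deposited for expression holds, per the file headers, estimated counts, the fragments that Cuffdiff assigned to each of 26006 loci. These were used only for depth; 3.31% of nonzero values were not whole, and 7820 loci had no fragment in any library. The fraction of each library is in the table, and its replicate index was assumed to be the replicate number of the labels.

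The deposited lists hold 4531 high and 4436 low rows. Repeated rows (17 symbols on the low list) were counted once, and 4 symbols on both lists were left out. Members were matched to RefSeq (148 of 149, 2 under an older symbol), which gave promoter windows for 119. GENCODE release 29 gave coding lengths for 146. The members, classes and lists were chosen with earlier results of these data known, as were the motifs and promoter measures. Substrate classes came from textbook substrates. SLC2A4RG and SLC7A6OS were moved to the members that encode no transporter after the lists were seen. Every member of the glucose, amino acid, nucleoside, ion and mitochondrial classes was to be named, or, in classes of over 15, all of the smaller list and at least 5 of the other. The pair of ADP/ATP carriers printed was chosen after their lists were seen. SLC28A1 was not in the plan for printed promoters, while SLC2A3 was in it but had no window. Counts, medians and shares were computed with Python 3.11.15, pandas 2.3.3 and numpy 2.4.6. A few members and partner genes counted in the totals are not reported here by name. Without values per gene and library no test was run, and alternatives changed which genes were counted, how they were classed and the promoter window.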

Additional observations from a re-analysis of the deposited data

How the results depend on the processing

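The share of members on the high list was 46.3%. It was 46.5% for transporters only, 47.3% for RefSeq protein-coding members, 41.5% without the SLC25 family and 48.9% with 1 member kept for each run of neighbours, an alternative chosen after seeing the data. The share of all listed genes was 50.6%, and it was 54.4% without olfactory receptor, keratin associated protein, beta defensin and LINC genes, and 54.1% for RefSeq protein-coding genes only. With mitochondrial carriers put with what they carry, amino acid carriers were 13 of 26 high in place of 10 of 23, carboxylate carriers 5 of 8 in place of 2 of 5, inorganic ion carriers 9 of 22 in place of 8 of 21, metal carriers 16 of 21 in place of 15 of 20 and nucleoside carriers 5 of 10 in place of 1 of 5. In this alternative SLC25A39 was classed with orphan carriers, and the iron importer SLC25A37 with metal carriers, after the lists were seen. Leaving out members with no settled substrate gave 66 of 142 (46.5%). The median CpG ratio was 0.840 for high and 0.419 for low members over the 150 bases before the start, and 0.909 and 0.395 with each gene's most CpG-rich window, a choice made after seeing the data.

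No paired analysis was possible because the lists hold no value per library. The planned comparison of protein identity within families was not run, since no protein table was used here. The lists give no depth behind a gene, and the level that separated listed from unlisted genes is unknown.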

Other observations

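Carriers that go by names other than SLC stood on both lists. Of 41 such genes looked up, 9 were on the high list, 10 on the low list and 22 on neither. The high ones were UCP2, MTCH1, MTCH2, SFXN1 and LETM1, all of mitochondria, the phosphate exporter XPR1, the pyrophosphate carrier ANKH, the lysosomal cholesterol carrier NPC1, and SLCO4A1, an organic anion carrier. The low ones were UCP1, the heat-producing carrier of brown fat, the organic anion carriers SLCO1A2, SLCO1B1, SLCO1C1, SLCO2B1 and SLCO5A1, the red cell protein RHAG, the synaptic vesicle proteins SV2B and SV2C, and SPNS3. Within the organic anion carriers named SLCO, 1 was thus high and 5 were low. Of 26 partners of solute carriers looked up, 13 were high, 2 were low and 11 were on neither list. Over all RefSeq protein-coding genes, 22.3% were high and 18.8% low. These genes were chosen with the lists known, and no test was made.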
